A study of Drosophila melanogaster with 2 samples.

Results

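The proteasome subunit genes of Drosophila melanogaster were examined in a map of Glass binding in whole pupae. Members were the protein-coding genes with a symbol that starts with Prosalpha, Prosbeta, Rpn or Rpt and a digit in the Ensembl annotation of the dm6 genome, and 48 of 13945 protein-coding genes met this rule. No binding value was used in the rule, but the part was chosen with earlier results of these data known. They comprised 32 subunit genes without a suffix (7 alpha ring, 7 beta ring, 6 Rpt and 12 Rpn genes) and 16 paralogs with the suffix R or T (5 alpha ring, 6 beta ring, 3 Rpt and 2 Rpn genes). Of the 48 genes, 8 lay on 2L, 13 on 2R, 7 on 3L, 14 on 3R and 6 on X. The series held a single group of 2 biological replicates of pupae of mixed sex, aged 24 hour, from a fly line with a transgene for the gl protein carrying GFP at its C terminus. Labels were not uniform: both libraries are described in 1 field as input, but their antibody and assay entries name ChIP against gl, and they were read as ChIP. No untagged group was compared, and the promoter of the transgene was not given in the sources used here.

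The 26S proteasome degrades proteins marked with ubiquitin. Its core particle is a barrel of alpha rings, which gate the entrance, and beta rings, which hold the cutting sites inside. The regulatory particle caps the barrel: the Rpt subunits form a ring of ATPases that unfolds the substrate, and the Rpn subunits recognise ubiquitin, remove it and hold the cap together. Every growing cell needs the complex, so its genes are usually counted among the housekeeping genes. Several paralogs with the suffix T are known as testis forms in Drosophila. Glass is a zinc finger transcription factor known for its role in photoreceptor development. Because whole animals were used, weak binding in many cells and strong binding in few cells cannot be told apart.

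The authors deposited a list of 30000 entries for each replicate, a pooled list of 30000 entries, and a thresholded list of 4809 peaks called the optimal list here, whose peaks are the strongest pooled entries. Each entry has a signal value of the authors, and signal values in the optimal list ran from 127.0 to 3647.9 with a median of 200.4. A gene was counted when the summit of an entry lay in its span or within 1 kb of either end. No read counts were given, so the depth behind the signal values is unknown. The authors' title for the pooled list is peaks and background. Its −log10 q values went down to 0.3, and 37.9% of its entries had at least 2. An entry of the pooled list alone is therefore not a called peak.

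Within 1 kb, few proteasome genes had a summit of the optimal list, and all that did encode standard subunits. By the span rule, 5 of 48 genes (10.4%) had a summit, against 23.1% of all protein-coding genes. They were Prosalpha3, Rpn2, Rpn3, Rpn5 and Rpn13, which is 5 of the 32 genes without a suffix (15.6%). None of the 16 paralogs had one, and neither did any of the beta ring or Rpt genes. Of the 12 Rpn genes without a suffix, 4 (33.3%) had a summit. Proteasome genes are short, with a median span of 1381.5 bp against 2166 bp for all genes. Among the 10135 genes no longer than the longest member (4500 bp), 15.8% had an optimal summit. The share of the standard subunit genes was close to that value. For the standard subunit genes the order against all genes depended on the extension. With 5 kb, 17 of the 32 (53.1%) had a summit, against 41.3% of all genes. All 48 members stayed below all genes, with 19 (39.6%). The strongest optimal signal at the 5 genes had a median of 302.0, and that of the 3224 genes with a summit was 231.1.

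Entries of the pooled list, which includes background, were more common at the standard subunits than at the paralogs. In the pooled list 30 of 48 members (62.5%) had an entry, against 62.0% of all genes and 55.0% of genes no longer than the longest member. The members divided by suffix: 27 of 32 standard subunit genes (84.4%) had an entry, and 3 of 16 paralogs (18.8%). The spans of both were of like length, with medians of 1390 and 1282 bp. At pooled entries with a −log10 q of at least 2, 16 standard subunit genes and 1 paralog had an entry, 17 in all, against 41.2% of all genes. Of the 16 standard subunit genes at that cut, 9 were Rpn genes. The strongest pooled entry of the 27 standard subunit genes had a median signal of 73.5, which is above the median of all pooled entries (53.0) and below the median of the strongest entries of all 8647 genes with one (95.2). Proteasome genes without a suffix were thus often in the pooled list, at signals mostly under the lowest value of the optimal list. No test was made of these differences.

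**Figure D1:**
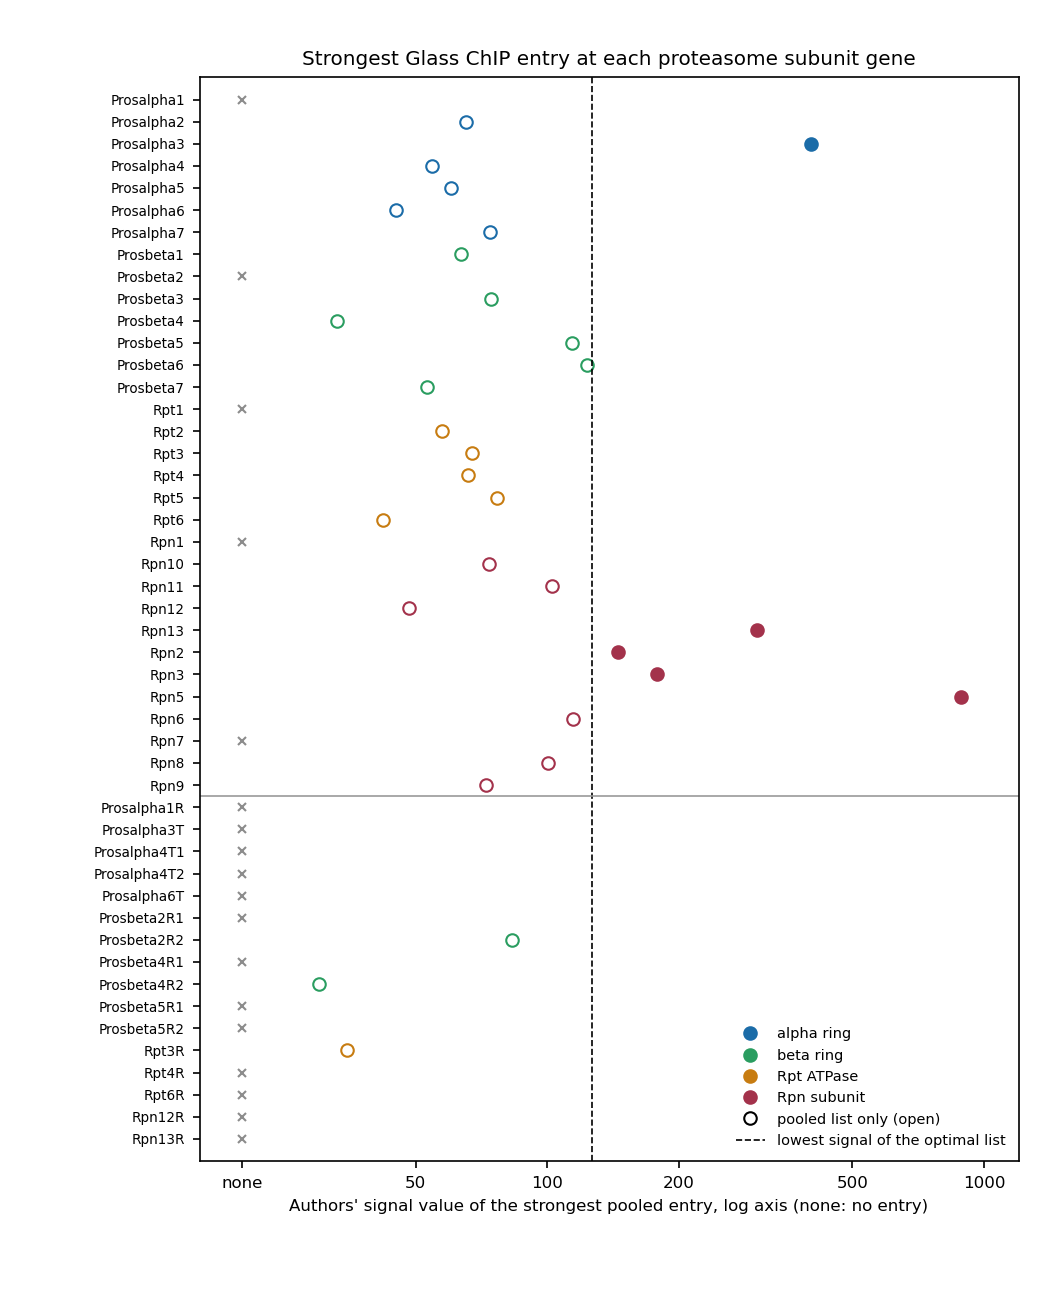
The horizontal log axis gives the authors' signal value of the strongest pooled entry in the span of each of the 48 genes extended by 1 kb, filled where the gene had a summit of the optimal list, and crosses mark genes with no pooled entry. The 5 filled points lie right of the dashed line at 127.0, the lowest optimal signal, and 13 of the 16 paralogs below the grey line have no entry.

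**Figure D2:**
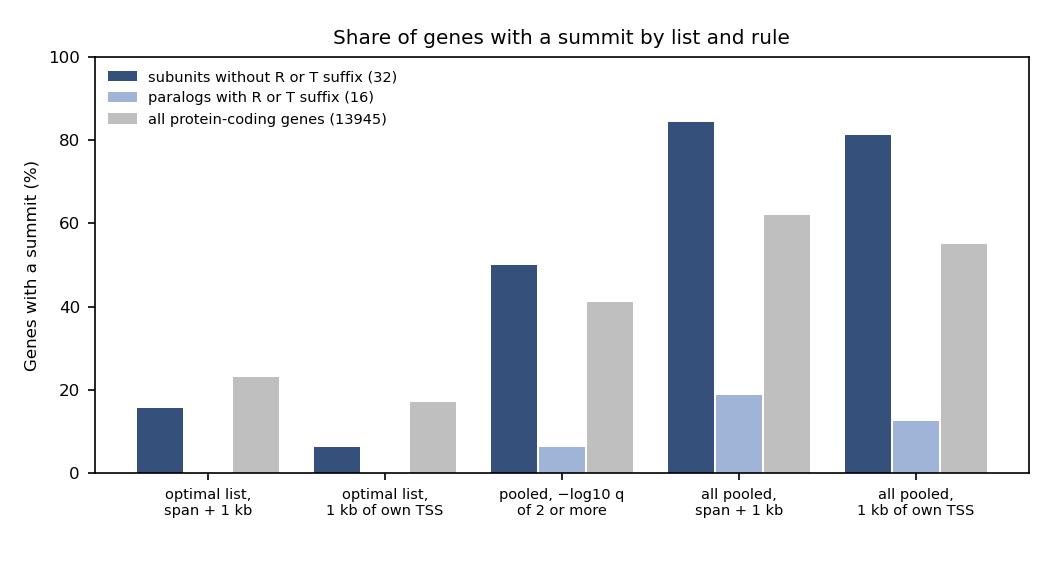
Bars give the percentage of genes with a summit by list and rule for the 32 standard subunit genes, the 16 paralogs and all 13945 protein-coding genes. By the span and 1 kb, the standard subunit genes were below all genes in the optimal list (15.6% against 23.1%) and above them in the pooled list (84.4% against 62.0%). Genes no longer than the longest member, which are not drawn, had 15.8% and 55.0%.

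The summits of the optimal list at Rpn3, Rpn5 and Rpn2 are shown here with the bases around them, as 4 of the 7 summits behind the count of 5 genes. The other 3, at Prosalpha3 and Rpn13, are described by position alone. Each run is the plus strand of dm6 up to 50 bp to each side of the summit, ended where an exon began, and capitals mark CAGCTG, the only one of the 8 motifs searched that was found in these 4 windows.
Rpn3 at chr2L:19051693-19051789: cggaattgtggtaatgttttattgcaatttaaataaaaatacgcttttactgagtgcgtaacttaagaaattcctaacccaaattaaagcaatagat
Rpn5 upstream at chr3R:5789181-5789281: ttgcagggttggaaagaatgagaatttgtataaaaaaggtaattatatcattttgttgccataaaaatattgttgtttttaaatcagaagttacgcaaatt
Rpn5 downstream at chr3R:5791728-5791828: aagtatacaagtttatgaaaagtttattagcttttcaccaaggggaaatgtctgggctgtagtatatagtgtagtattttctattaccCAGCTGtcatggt
Rpn2 downstream at chr3R:29157819-29157919: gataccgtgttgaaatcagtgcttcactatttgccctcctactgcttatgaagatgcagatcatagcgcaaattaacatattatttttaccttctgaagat
Of these bases, 28.9% were G or C at Rpn3, 25.7% and 34.7% at the upstream and downstream summits of Rpn5, and 36.6% at Rpn2. Over windows of 101 bp at all 4809 optimal summits the median was 37.6%, so the windows at Rpn3 and upstream of Rpn5 were poor in G and C.

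Among the Rpn genes, Rpn3 was the only one with an optimal summit nearest to its own start. Rpn3 (FBgn0261396, 2L 19051790 to 19053681, plus strand) encodes a lid subunit. Its summit at 19051743 lay 47 bp upstream of its transcription start site (TSS), outside protein-coding genes. A TSS of l(2)37Bb, on the other strand, lay 178 bp upstream of that of Rpn3. The summit lay between both starts and cannot be assigned to either gene. The signal value was 178.6, rank 2902 of 4809. In the replicate 1 list the entry there had a signal of 100.7 and rank 3010 of 30000, and in the replicate 2 list 53.4 and rank 6042. The replicate 2 entry was thus outside the 4809 strongest of its list. A pooled entry at 19054285, in a UTR exon of CG10492 behind Rpn3, had the opposite order, with rank 20594 in replicate 1 and 5043 in replicate 2.

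Rpn5 (FBgn0028690, 3R 5789493 to 5791569, plus strand), another lid subunit gene, had the strongest summit of all members. This summit, at 5791778, had a signal value of 884.8 and rank 119 of 4809. It ranked 91 in replicate 1 and 230 in replicate 2, with signals of 573.9 and 306.2, so it was near the top of both lists. It lay 209 bp past the end of Rpn5 and 101 bp from the TSS of Hpf1, outside protein-coding genes, and 2285 bp from the TSS of Rpn5. A weaker optimal summit lay on the other side, at 5789231, 262 bp upstream of Rpn5 in an intron of Hat1. Its signal value was 129.1 and its rank 4689, close to the end of the optimal list. It ranked 4235 in replicate 1 and 7098 in replicate 2, where the nearest entry lay 87 bp away.

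The other Rpn summits lay behind the genes, near starts of neighbours. Rpn13 (FBgn0033886, 2R 13958545 to 13960404, minus strand) encodes a ubiquitin receptor. Its summit at 13957580 was in an intron of AGO1, 509 bp from an AGO1 TSS and 2628 bp from a TSS of Rpn13. The signal value was 302.0, rank 1255, and the entry ranked 1419 in replicate 1 and 1070 in replicate 2. Rpn2 (FBgn0028692, 3R 29153524 to 29157255, plus strand) encodes a scaffold of the regulatory particle. Its summit at 29157869 lay 4345 bp from the TSS of Rpn2 and 253 bp from that of rdog, with a signal value of 145.6 and rank 3939. This summit was the least equal of the 7 between replicates: it ranked 2617 in replicate 1 and 14399 in replicate 2, where its signal was 28.7.

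The Rpn genes without an optimal summit ranged widely. Rpn6, a lid subunit gene, had a pooled entry of 114.9 in an intron of the gene, 33 bp upstream of a TSS that lies inside its span. Rpn11, which encodes the deubiquitinase of the lid, had one of 102.8 at 367 bp upstream. Rpn8, its partner in the lid, had one of 100.2 that lay nearest to Slik, at 104 bp. These 3 values are under the lowest optimal signal of 127.0 but above 95.2, the median given above for all genes with an entry. Rpn10, a ubiquitin receptor, Rpn9 and Rpn12 had 73.5, 72.6 and 48.2. Rpn1 and Rpn7 had no pooled entry. Rpn1, another ubiquitin receptor and a scaffold, had entries in replicate 2 alone, the strongest at rank 17543, and Rpn7 had one in replicate 1 alone, at rank 27652.

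In the alpha ring, Prosalpha3 (FBgn0261394, 2R 20994900 to 20996118, plus strand) alone had optimal summits, and both lay behind the gene. The stronger, at 20996805, had a signal value of 402.3 and rank 741, in a UTR exon of CG10543 at 164 bp from its TSS. It ranked 661 in replicate 1 and 889 in replicate 2. The other, at 20997006 in an intron of CG10543, had 144.6 and rank 3986, and ranked 3638 in replicate 1 and 9636 in replicate 2. At the start of Prosalpha3 itself, 79 bp upstream, the pooled list had a weaker entry of 56.5, found in replicate 2 alone. The strongest pooled entries of Prosalpha2, Prosalpha4, Prosalpha5, Prosalpha6 and Prosalpha7 ran from 45.1 at Prosalpha6 to 73.9 at Prosalpha7. Prosalpha1 had no entry in the pooled list or in either replicate list.

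In the beta ring the entries closest to the optimal list were at Prosbeta6 and Prosbeta5. Prosbeta6 had a pooled entry of 123.1, rank 5049 of 30000, which lay 33 bp from the TSS of CG4098 and 1104 bp from its own. Prosbeta5 encodes the subunit with chymotrypsin-like activity, and its entry of 114.1 lay 47 bp from its TSS and as far from that of dgo. Both were higher in replicate 2: Prosbeta5 ranked 12773 in replicate 1 and 3980 in replicate 2, and Prosbeta6 ranked 8949 and 3219. Prosbeta1, with caspase-like activity, had a pooled entry of 63.6 at 48 bp upstream, which ranked 4961 in replicate 2 and had no replicate 1 entry within 200 bp. Prosbeta3, Prosbeta7 and Prosbeta4 had 74.3, 53.1 and 33.1. Prosbeta2, with trypsin-like activity, had no pooled entry and a single replicate 1 entry at rank 21566.

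The strongest entries of the Rpt genes spanned the smallest range of the 4 classes without a suffix. Rpt5 had 76.8, Rpt3 67.2, Rpt4 65.9, Rpt2 57.5 and Rpt6 42.0 as strongest pooled signal, and Rpt1 had no entry in any list. The entries of Rpt4, Rpt5 and Rpt6 lay 0, 6 and 58 bp from the TSS of the gene. At Rpt4 the summit was the first base of the gene. The strongest entry at Rpt3 lay 38 bp from the TSS of CG11122 and differed between replicates, with rank 22568 in replicate 1 and 5345 in replicate 2.

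Of the 16 paralogs, 13 had no pooled entry within 1 kb: Prosalpha1R, Prosalpha3T, Prosalpha4T1, Prosalpha4T2, Prosalpha6T, Prosbeta2R1, Prosbeta4R1, Prosbeta5R1, Prosbeta5R2, Rpt4R, Rpt6R, Rpn12R and Rpn13R. None of these 13 had an entry in either replicate list. Prosbeta2R2 had the strongest entry of the other paralogs, 83.1, which lay 115 bp from the TSS of cno and ranked 9875 in replicate 1 and 8101 in replicate 2. Rpt3R had 34.8 at 41 bp upstream of its TSS, and Prosbeta4R2 had 30.0 at 2581 bp from its TSS. The last value is near the low end of the pooled list, at percentile 7.84.

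Where the summits lay was the main feature of the 7 optimal summits. None lay inside a member: with spans not extended, the count was 0 of 48, against 12.8% of all genes. That share was not matched for gene length, and the median span of the members is below that of all genes. At most 1 kb from their own TSS, 2 genes had a summit, Rpn3 and Rpn5, against 17.0% of all genes. All 7 summits lay within 1 kb of some protein-coding TSS, as did 46.5% of all optimal summits. The 7 were taken in or within 1 kb of short genes, so the rule itself favours summits near a TSS. The share of all optimal summits has no such limit. By the nearest TSS, 3 members were counted against 19.1% of all genes: Rpn3, and Prosbeta2 and Prosbeta5R1 through summits 5667 and 9139 bp from those genes. Just inside the limit of 1 kb were the summits at Prosalpha3, at 687 bp, and Rpn13, at 965 bp from the gene. Just outside it were Rpn9, with a summit of 176.1 at 1315 bp, Prosalpha4 with 371.4 at 1374 bp, and Rpt3 with 289.2 at 1383 bp. Those summits were nearest to CG10365, eas and CG11122.

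Many pooled entries lay near the members' own starts. Of 53 pooled entries at the standard subunit genes, 37 lay within 1 kb of the gene's own TSS and 21 within 200 bp. No share over all pooled entries is given for these counts of entries or for that by the nearest TSS. Because the genes are short, much of each extended span lies within 1 kb of the TSS, so the rule itself favours such entries. By gene, 26 of 32 standard subunit genes (81.2%) and 2 of 16 paralogs (12.5%) had a pooled entry within 1 kb of their own TSS, 28 members in all. All genes reached 55.1%, and those no longer than the longest member 48.6%. Within 200 bp the count was 18 of 32 and 2 of 16, against 37.7% of all genes. The nearest TSS was the gene's own for 25 of the 53 entries, at 20 genes. Standard subunit genes often share their start region with a gene on the other strand: 19 of 32 had a divergent TSS within 1 kb, against 3 of 16 paralogs and 35.2% of all genes. The distance between the starts was 42 bp for Rpt5 and RanBP3, 58 bp for Rpt4 and mldr, and 94 bp for Prosbeta5 and dgo. It was 109 bp for Rpn5 and Hat1, and 178 bp for Rpn3 and l(2)37Bb, with the optimal summit of Rpn3 between them. An entry between such starts cannot be assigned to either gene.

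**Figure D3:**
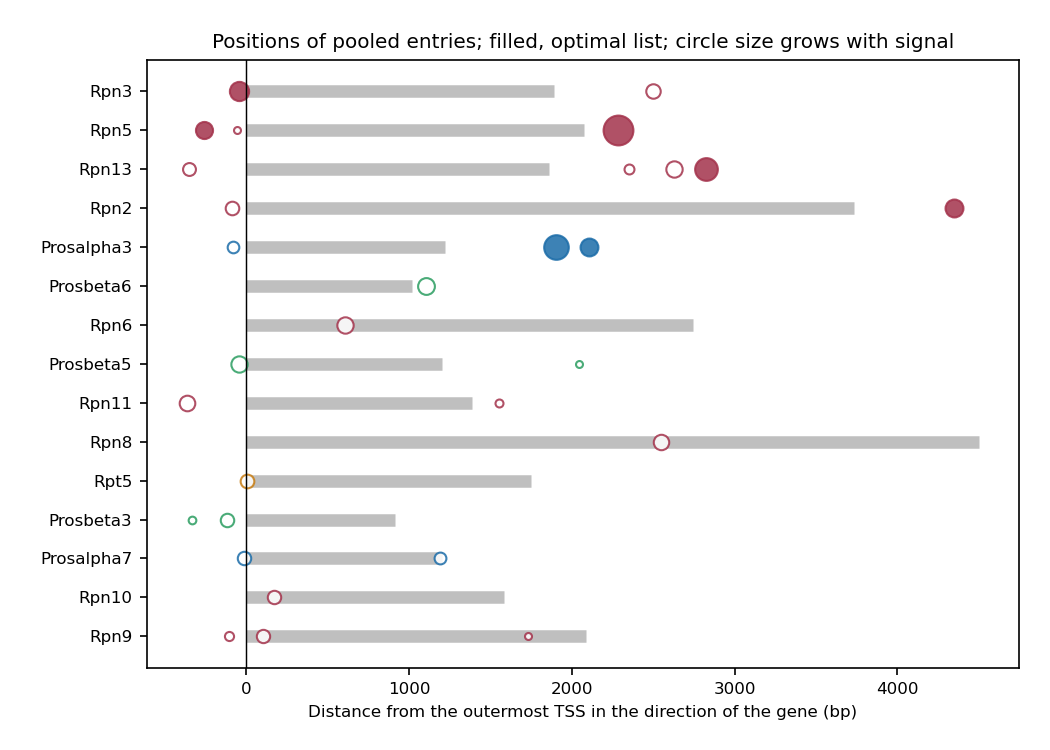
Circles are pooled entries by distance in bp from the outermost TSS for the 15 standard subunit genes with the strongest entries, grey bars are the gene spans, filled circles are in the optimal list, and circle size grows with the signal value. The filled circles of Rpn5, Rpn13, Rpn2 and Prosalpha3 with the highest signal lie past the ends of the genes, and that of Rpn3 lies 47 bp upstream of its start.

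The replicates shared the strong summits and differed in the order of the weaker ones. All 7 optimal summits had an entry within 200 bp in both replicate lists, as did 97.3% of all optimal peaks. At 3 of the 7, the downstream summit of Rpn5, that of Rpn13 and the stronger one of Prosalpha3, the entry was among the 4809 strongest in both lists. The other 4 were so in replicate 1 alone. The same share over all optimal peaks was not counted, so these counts cannot be set against the whole list. Among the 4809 strongest entries of replicate 1, 5 members had a summit, the same 5 genes as in the optimal list, against 22.8% of all genes. Among those of replicate 2, 6 members had one, against 23.1% of all genes: Prosalpha3, Rpn5 and Rpn13 again, and Prosbeta5, Prosbeta6 and Rpn8. Rpn2 and Rpn3 were therefore counted with replicate 1 and not with replicate 2. With all entries, 29 members had one in replicate 1 against 61.2% of all genes, and 30 in replicate 2 against 64.5%. The divide by suffix was present in each replicate: 28 standard subunit genes and 1 paralog in replicate 1, and 27 and 3 in replicate 2. Of the 53 pooled entries at standard subunit genes, 30 (56.6%) had an entry within 200 bp in both replicates, against 59.6% of all pooled entries, and 9 had one in replicate 1 alone, 11 in replicate 2 alone and 3 in neither.

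**Figure D4:**
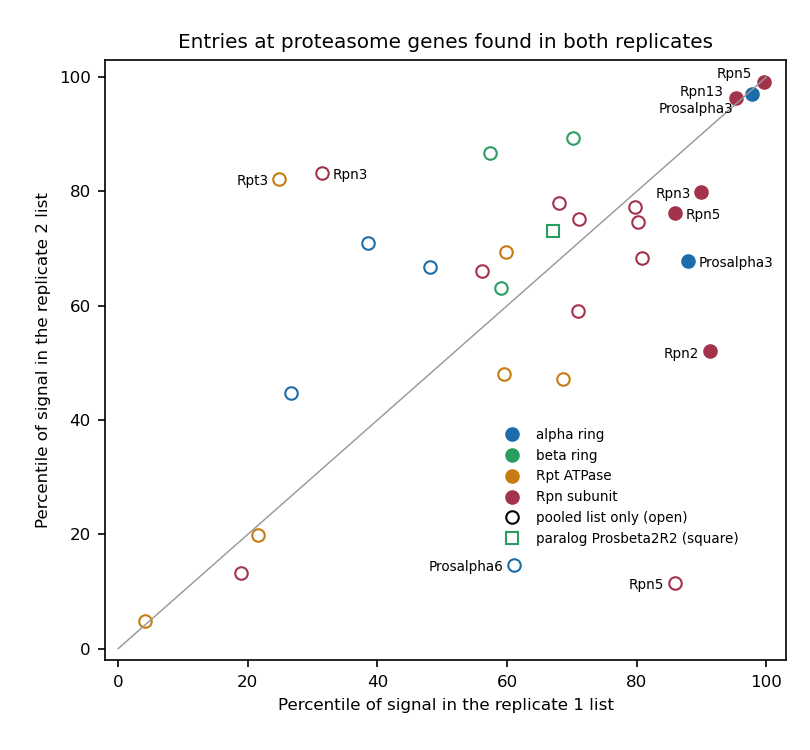
Each point is a pooled entry at a member with an entry within 200 bp in both replicates, placed by the percentile of its signal in the replicate 1 list (horizontal) and the replicate 2 list (vertical), with the line of equal percentiles. The summits of Rpn5, Prosalpha3 and Rpn13 at the top right are above percentile 95 in both lists, whereas Rpn2 is at 91.3 and 52.0 and the entry of Rpt3 at 24.8 and 82.2.

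The 2404 strongest optimal peaks had summits at Prosalpha3, Rpn5 and Rpn13, 3 members against 13.6% of all genes. These are the same 3 genes that were strong in both replicates. At each of them the strong summit lay closer to a start of CG10543, Hpf1 or AGO1 than to one of the proteasome gene.

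Promoters of the standard subunit genes were compared by motifs, since many pooled entries lay there. The 250 bp upstream of the outermost TSS were searched on both strands for 8 motifs. TATCGATA, the element of the factor DREF, which is known for housekeeping and replication genes in Drosophila, was in 10 of 32 promoters (31.2%) of standard subunit genes, in 0 of 16 paralogs, and in 8.0% of all promoters. The 10 genes were Prosalpha3, Prosalpha5, Prosalpha6, Prosbeta1, Prosbeta2, Prosbeta6, Rpn3, Rpn12, Rpn13 and Rpt5. The promoters of Prosalpha6, Prosbeta2 and Prosbeta6 are printed in the direction of the gene, ending at the base before the TSS, with TATCGATA and TACTAA (or its reverse complement) in capitals, because they differ in Glass entries.
Prosalpha6 at chr2L:10221231-10221350: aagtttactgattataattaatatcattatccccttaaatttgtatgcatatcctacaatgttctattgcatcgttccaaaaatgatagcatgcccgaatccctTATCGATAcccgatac
Prosbeta2 at chr3L:14999831-14999950: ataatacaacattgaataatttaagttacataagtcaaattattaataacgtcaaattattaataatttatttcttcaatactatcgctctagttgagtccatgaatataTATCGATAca
Prosbeta6 at chr3L:16610419-16610538, minus strand: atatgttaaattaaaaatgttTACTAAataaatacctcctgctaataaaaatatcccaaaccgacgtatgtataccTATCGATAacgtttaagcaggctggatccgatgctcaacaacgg
The element began 16 bp upstream of the TSS in Prosalpha6, 10 bp in Prosbeta2 and 44 bp in Prosbeta6. Prosbeta2 had no pooled entry, Prosalpha6 had one of 45.1 at 362 bp upstream, and the entry of Prosbeta6 lay behind the gene. At Rpt5, another promoter with the element, the entry of 76.8 lay 6 bp from the TSS. Rpn3, Prosbeta1, Prosalpha5 and Prosalpha3 also had an entry near the start, 47, 48, 57 and 79 bp from a TSS of the gene. At Rpn12 and Rpn13 the closest pooled entry lay 252 and 355 bp from a TSS of the gene. The element was thus found both with and without an entry at the start of the gene.

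The other motifs were less common in these promoters. TACTAA, a 6-mer taken from earlier work on these peaks, was in 9 of 32 promoters (28.1%) of standard subunit genes, 2 of 16 of the paralogs and 14.2% of all. GAGAGA, the site of the GAGA factor, was in 0 of 32, against 10.8% of all promoters, and the overlapping 6-mer AGAGAG in 1 of 32, against 12.2%. The E-box CAGCTG was in 1 of 32, against 13.4%. TGACNNNGC, a core of the antioxidant response element to which cnc binds, was in 1 of 32 against 6.35%, at Prosbeta3. GGTCACAC, a core promoter motif, was in 1 of 32 against 4.21%, and CAAAGTCC, an 8-mer of the earlier work, in 0 of 32 against 0.653%. Within 50 bp of the 7 optimal summits, 3 windows held any of the 8 motifs, against 23.8% of all optimal summits. GAGAGA and AGAGAG were found as 1 overlapping stretch at the stronger summit of Prosalpha3, against 7.88% and 9.63% of all optimal summits. CAGCTG was found at the weaker summit of Prosalpha3 and the downstream summit of Rpn5, against 3.91%. TATCGATA was at none of the 7 and at 0.416% of all optimal summits. In the pooled list it was at 3 of 59 entries at members (5.08%), against 0.583% of all pooled entries. The latter share was not limited to entries at or near genes, and a count of 3 is small.

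Genes that act on the proteasome or feed it were read from a list of 31, and 6 of them (19.4%) had an optimal summit, against 23.1% of all genes. The list had a median span of 2132 bp, near that of all genes, so its count was no higher than the background, and the values below are a description of single genes. In cnc, whose mammalian relatives activate proteasome genes when the proteasome is impaired, 5 summits lay in the span of 41132 bp or within 1 kb of it. The strongest, 223.9 with rank 2034, was in an intron 342 bp from a cnc TSS, and ranked 1806 in replicate 1 and 3323 in replicate 2. Keap1, the adaptor that holds cnc in check, had 2 summits, the stronger of 479.5 with rank 527, located 898 bp upstream in an intron of kuk. It ranked 278 in replicate 1 and 2123 in replicate 2. Pomp, the assembly chaperone of the core particle, had a summit of 137.0 at 248 bp upstream, with ranks 3277 and 9658. Among ubiquitin genes, Ubi-p63E had 264.8 at 32 bp from a TSS, with ranks 3615 and 720, and RpS27A had 207.0 at 8 bp from its TSS and that of Ip259, with ranks 3035 and 1822. The ubiquitin genes Ubi-p5E and RpL40 had none. Of the 9 genes of the COP9 signalosome, a complex related to the lid, alien alone had a summit, of 163.2, 49 bp from the TSS of CG18661 and 177 bp from its own.

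Gene lists of other large complexes of housekeeping genes were counted by the same rule. Of 92 cytosolic ribosomal protein genes, with a median span of 1315 bp, 59 (64.1%) had an optimal summit, 58 of them within 1 kb of their own TSS. Of 33 vacuolar ATPase subunit genes, with a median span of 1732 bp, 6 (18.2%) had one, 5 within 1 kb of their own TSS. Paralogs were not set apart in those lists. All 48 proteasome genes had 10.4%, and 2 of 48 had a summit within 1 kb of their own TSS. The 32 standard subunit genes alone, a set chosen in another way, had 15.6% and 2 of 32. No test was made of these differences, and the pattern of the ribosomal genes was already known from earlier work on these lists.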

How the data were processed

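Glass with a C-terminal GFP was mapped by ChIP-seq in 2 replicates. Per the deposited text files, the authors derived each replicate list from an alignment to dm6 and a shared control, and the optimal list by the irreproducible discovery rate. The signal value of each entry and its −log10 q value are those deposited by the authors, on a scale not stated, and were used only within a list. The aligner, the peak caller and the depth are not given in the sources used here.

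Summits were taken from the lists with Python 3.11.15, pandas 2.3.3 and numpy 2.4.6, and figures drawn with matplotlib 3.10.9. Coordinates are 1-based. Genes came from Ensembl release 115 (BDGP6.54, dm6) and bases from the same assembly at NCBI. Arms 2L, 2R, 3L, 3R, 4 and X were used. Entries within 200 bp were called shared between lists. Ribosomal protein and vacuolar ATPase genes were taken by symbol, and 1 of the 31 pathway genes, Ufd1, by an older name. The counting was tested on simulated summits. With 1 group there is no contrast and no p-value, and the replicates are described separately. All members were named, with full values for those with an optimal summit, and pathway genes with a summit. The members, lists, motifs and alternatives were chosen with earlier results of these data known. Bases from arm 2R were not printed.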

Additional observations from a re-analysis of the deposited data

How the results depend on the processing

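The count of 5 proteasome genes with an optimal summit depended on the rule. It was 0 with spans not extended, 19 with 5 kb, 2 within 1 kb of the gene's own TSS, 3 by the nearest TSS, 3 among the 2404 strongest peaks, 30 in the whole pooled list, and 17 among pooled entries with a −log10 q of at least 2, a setting chosen after seeing the data. Leaving out a replicate gave 5 to 6. Members as a whole were below all genes at each extension. They had 0 against 12.8% with spans not extended, 10.4% against 23.1% with 1 kb and 39.6% against 41.3% with 5 kb. The order changed for the standard subunit genes alone, which had 15.6% with 1 kb and 53.1% with 5 kb. These shares of all genes were not matched for gene length, and the cause was not tested. The median signal of 302.0 became 277.7 with 5 kb, 153.9 within 1 kb of the own TSS (2 genes) and 402.3 among the 2404 strongest (3 genes), and spans not extended left no value. Summits found in both replicates went from 7 to 3 among the strongest entries, for which the share over all optimal peaks was not counted. They were 6 within 100 bp and 7 within 400 bp. Summits within 1 kb of the own TSS went from 2 to 1 within 200 bp and 0 among the 2404 strongest. Summits with a motif went from 3 to 5 with 100 bp windows. The depth is unknown, 2 replicates give little precision, and with counts of 7 or fewer a single summit moves each share.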
